A study of Mus musculus with 2 samples.

Results

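The genes described here encode the enzymes that make cholesterol, the proteins that sense sterols and set the output of that pathway, and the proteins that take cholesterol up, move it, store it, oxidise it or export it. The list held 36 mouse genes chosen by function, with earlier results of these data known. Of these, 33 were measured, out of 18193 named genes on the arrays. A gene counted as measured when at least 1 probe set was annotated to it alone, and its brightest probe set stood for it. Acat2, Nr1h2 and Soat1 were not analysed here.

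The measured cells were young primary mouse embryonic fibroblasts (MEFs) at passage 2, grown from whole C57BL/6 embryos at embryonic day 13.5. One sample was transfected with GapmeR AK156230, a locked nucleic acid oligonucleotide that directs RNase H to the long noncoding RNA AK156230. The other was transfected with GapmeR Control, the control oligonucleotide. RNA of each was hybridized to 1 Affymetrix array, so no difference below has a replicate check and no p-value is given. The labels name a single GapmeR against AK156230, so effects of the oligonucleotide itself and of loss of the lncRNA cannot be told apart.

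Cholesterol is built from acetyl-CoA in the cytosol and endoplasmic reticulum, by way of mevalonate, isoprenoid diphosphates, squalene and lanosterol. Transcription of most of the enzymes is driven by SREBP2, a membrane-bound factor encoded by Srebf2. When sterols are scarce the escort protein SCAP carries SREBP2 to the Golgi, where a pair of proteases release the active fragment, and when sterols are plentiful INSIG proteins hold SCAP and SREBP2 in the endoplasmic reticulum. The nuclear receptors LXR, in contrast, are switched on by oxysterols and drive export through ABC transporters and, through Mylip, the breakdown of lipoprotein receptors. Cultured fibroblasts use both their own synthesis and lipoproteins of the serum as sources of cholesterol.

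The values are MAS5 signals, a summary of each probe set's brightness on a linear scale, with a median over all probe sets of 50.95 with GapmeR AK156230 and 54.8 with GapmeR Control. Ratios are GapmeR AK156230 over GapmeR Control of the signals as deposited, and 2-fold in either direction was the threshold. The log2 ratio of the medians was -0.11, and the median log2 ratio over all named genes was -0.07, so small negative values lie near the middle of the array. Scaling both arrays to the same median moved every log2 ratio up by that shift. It also changed the balance of all genes past 2-fold, of which 70.8% were lower in the signals as deposited and 60.04% after scaling. As a guide to measurement error within an array, the 2 brightest probe sets of a gene were compared over 4478 genes. Only probe sets at or above the median on both arrays were used, and the within-gene SD of the log2 ratio was 0.24. This SD does not cover dimmer probe sets or include the spread between cultures. AK156230 itself had no annotated probe set here, and its knockdown was therefore not read from these arrays. All 10 fibroblast markers were measured and 9 lay above the median on both arrays. Of the 10, however, 5 were lower by 2-fold or more, against 3.85% of all named genes. Their summed signal was 18337 with GapmeR AK156230, against 28955 with GapmeR Control. Markers of macrophages and leukocytes had summed signals of 1253 with GapmeR AK156230 and 1220 with GapmeR Control. Of these 6 markers, 5 lay above the median on both arrays, and the pan-leukocyte marker Ptprc lay below it on both. Of the 6, 2 were higher by 2-fold or more (Cd68 and Cd14), against 1.59% of all named genes. Of 4 measured adipocyte markers Fabp4 was lower by 2-fold or more, of 4 endothelial markers Kdr was higher, and no keratinocyte or hepatocyte marker passed 2-fold. The part of these differences in the sterol gene values was not tested.

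With GapmeR AK156230, 10 of the 17 measured enzymes of cholesterol synthesis were lower by at least 2-fold. Of the 33 measured genes of all roles, 13 were lower by 2-fold or more, or 39.4%, against 3.85% of all named genes and 4.92% of those whose brighter signal reached its array's median. None was higher by 2-fold or more, a direction that held 1.59% of all named genes. The log2 ratio was below 0 for 32 of the 33, against 58.8% of all named genes, and for 30 with both arrays scaled to the same median, where Ebp (0.03) and Abcg1 (0.02) were also above 0. The median as deposited was -0.79. Of the 13 lower genes 10 were synthesis enzymes, and the others were Insig1, Vldlr and Cyp7b1. At 1.5-fold 22 were lower and 1 was higher, while 9.69% and 5.48% of all named genes passed that limit in these directions.

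Among the 17 measured synthesis enzymes the median log2 ratio was -1.20, or 2.30-fold lower, and every log2 ratio was below 0 in the signals as deposited. They spanned -2.20 for Nsdhl to -0.08 for Ebp, and 15 of the 17 were lower by 1.5-fold or more. With both arrays scaled to the same median the median of the enzymes was -1.10, and Ebp was then at 0.03. All 17 had signals above the median on both arrays.

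**Figure D1:**
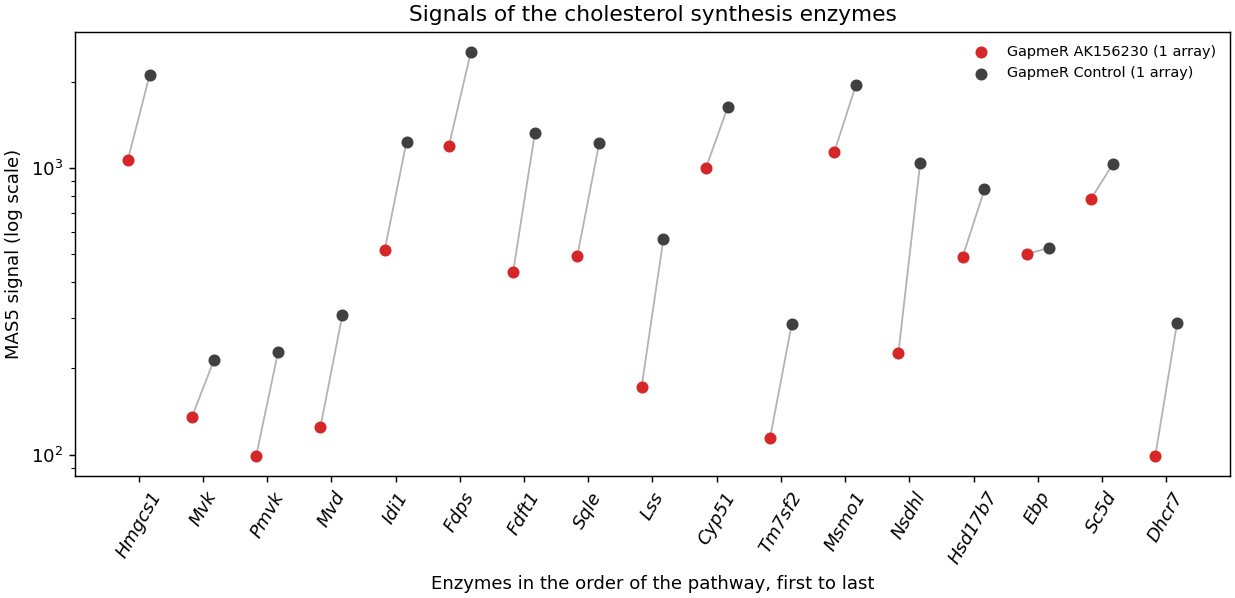
MAS5 signal (log scale) of the 17 measured enzymes of cholesterol synthesis in pathway order, with the GapmeR AK156230 array in red on the left of each pair and the GapmeR Control array in dark grey on the right, 1 array each. The red point lies below its partner for all 17 genes in the signals as deposited, with the widest gap at Nsdhl and the narrowest at Ebp.

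The first measured enzyme of the mevalonate part was Hmgcs1, which condenses acetoacetyl-CoA with acetyl-CoA to HMG-CoA. Its signal was 1069.5 with GapmeR AK156230, against 2121.5 with GapmeR Control, a log2 ratio of -0.99 that lay just within the 2-fold threshold. Hmgcs1 was read by 5 probe sets, whose log2 ratios ran from -1.71 to -0.98, and their mean was -1.19. Thus every probe set of this gene gave a lower signal with GapmeR AK156230, and the brightest was among the smaller differences.

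Of the kinases that follow, Pmvk passed 2-fold and Mvk did not. Mvk, which phosphorylates mevalonate, had 135.8 with GapmeR AK156230, against 213.5 with GapmeR Control (1.57-fold lower), and its other probe set had a log2 ratio of -0.71. Pmvk, which adds the next phosphate, had 99.2 with GapmeR AK156230, against 228.6 with GapmeR Control (2.30-fold lower). Mvd, the decarboxylase that yields isopentenyl diphosphate, had 125.2 with GapmeR AK156230, against 306.7 with GapmeR Control (2.45-fold lower). Its other probe set was 2.61-fold lower. Of the 4 measured genes of this part, 2 passed the threshold and all 4 passed 1.5-fold.

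All 3 enzymes that turn isopentenyl diphosphate into squalene were lower by 2-fold or more. The isomerase gene Idi1 had 517.8 with GapmeR AK156230, against 1240.2 with GapmeR Control (2.40-fold lower), and a further probe set was 2.17-fold lower. Fdps makes farnesyl diphosphate, the branch point from which dolichol, ubiquinone and protein prenylation are also fed. It had 1197.6 with GapmeR AK156230, against 2539.6 with GapmeR Control (2.12-fold lower), and was within 2-fold (log2 ratio -0.98) with both arrays scaled to the same median. A further probe set of Fdps was very dim, at 2.58 with GapmeR AK156230 and 5.97 with GapmeR Control.

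Fdft1, squalene synthase, commits farnesyl diphosphate to sterols. Its signal was 434.9 with GapmeR AK156230, against 1332.9 with GapmeR Control, or 3.06-fold lower, and its next brightest probe set was 3.26-fold lower, with 292.2 with GapmeR AK156230, against 951.9 with GapmeR Control. The dimmer probe sets of Fdft1 differed from these. They had log2 ratios of -0.47 and 0.03, at signals of 55.6 and 24.6 with GapmeR AK156230 and 77.1 and 24.1 with GapmeR Control, so the mean over all 4 was -0.94.

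Squalene is then epoxidised by Sqle, a step known to limit flux, and folded into lanosterol by Lss. Sqle had 495.0 with GapmeR AK156230, against 1221.2 with GapmeR Control (2.47-fold lower). Lss had 172.3 with GapmeR AK156230, against 565.9 with GapmeR Control (3.28-fold lower). The remaining probe sets of Lss gave -1.51 and -1.49 on the log2 scale, close to the value of -1.72 of the brightest. Up to lanosterol, 7 of 9 measured enzymes were thus lower by 2-fold or more, with a median of -1.26.

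The enzymes that convert lanosterol to cholesterol were more mixed, with 3 of 8 lower by 2-fold or more and a median of -0.78. The difference between the earlier and the later enzymes was not tested. Cyp51, which demethylates lanosterol, had 998.9 with GapmeR AK156230, against 1631.5 with GapmeR Control (1.63-fold lower), with log2 ratios of -0.92 and -0.84 at the remaining probe sets. The sterol reductase gene Tm7sf2 had 114.1 with GapmeR AK156230, against 286.6 with GapmeR Control (2.51-fold lower). Msmo1, a methyl sterol oxidase, had 1137.8 with GapmeR AK156230, against 1957.9 with GapmeR Control (1.72-fold lower).

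The lowest ratio of the pathway was that of Nsdhl, a dehydrogenase that works after Msmo1 in removing the same methyl groups. Nsdhl lies on the X chromosome (chrX:72918521-72958528, GRCm38.p6). Its signal was 227.2 with GapmeR AK156230, against 1047.5 with GapmeR Control, or 4.61-fold lower, and this rests on 1 probe set. Hsd17b7, the keto-reductase of the same demethylation, had 491.2 with GapmeR AK156230, against 843.8 with GapmeR Control (1.72-fold lower), and its further probe sets had log2 ratios of -0.79, -0.45 and -0.06.

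Near the end of the pathway Ebp, the isomerase that shifts the ring double bond, was the exception. It also lies on the X chromosome (chrX:8185329-8193512) and had 500.7 with GapmeR AK156230, against 527.8 with GapmeR Control, a log2 ratio of -0.08. The desaturase gene Sc5d had 783.1 with GapmeR AK156230, against 1035.0 with GapmeR Control (1.32-fold lower), with log2 ratios of -0.63 and -0.61 at its other probe sets. Dhcr7, the reductase that yields cholesterol from its direct precursor, had 99.0 with GapmeR AK156230, against 288.8 with GapmeR Control (2.92-fold lower). At the brightest probe sets the small differences in Ebp and Sc5d thus stood between larger ones on both sides in the order of steps. With the mean of all probe sets Sc5d was at -0.55, against -0.52 for Hsd17b7, so this did not hold for Sc5d.

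The promoters of these genes are shown next because SREBP2 is known to act on such promoters with the factors NF-Y and Sp1. RefSeq start sites of GRCm38.p6 gave a window of 250 bases before to 50 after the start for 30 of the 36 genes, 15 of them synthesis enzymes (Acat2 included). An SREBP motif, TCACNCCAC on either strand, was in the window of Hmgcs1 and of no other of these 30 genes. It was in 1.46% of 14452 measured genes with a promoter and in 1.24% of all 32851 promoters of the table. Other forms of the SREBP motif were not searched, and Fdps, Fdft1 and Sqle had no window. The NF-Y box CCAAT, on either strand, was in a window of 14 of the 15 synthesis enzymes (93.3%), 7 of 15 other members (46.7%) and 42.0% of 14452 measured genes with a promoter. The Sp1 box GGGCGG was in 14 of 15 synthesis enzymes, 11 of 15 other members and 57.3% of those genes. None of the motifs contains another, and a gene with several start sites counted once if any window held the match. A match is a description of letters and was not tested as a binding site. The part of these motifs in the signals was not tested.

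Below are the 250 bases before the start of Hmgcs1 (chr13:119690101-119690350, plus strand), which holds the SREBP motif, of Nsdhl (chrX:72918271-72918520, plus strand), the enzyme with the lowest ratio, and of Ebp (chrX:8193513-8193762, minus strand), the enzyme with the highest. They were chosen after the matches and values had been seen. Each is printed 5′ to 3′ on the gene's strand, with the SREBP motif and the NF-Y boxes (CCAAT or its other strand ATTGG) in capitals.
Hmgcs1: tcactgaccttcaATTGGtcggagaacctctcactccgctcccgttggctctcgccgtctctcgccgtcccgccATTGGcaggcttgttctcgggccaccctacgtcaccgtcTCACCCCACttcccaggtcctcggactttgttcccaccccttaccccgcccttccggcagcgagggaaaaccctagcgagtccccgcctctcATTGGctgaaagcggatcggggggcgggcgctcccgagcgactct
Nsdhl: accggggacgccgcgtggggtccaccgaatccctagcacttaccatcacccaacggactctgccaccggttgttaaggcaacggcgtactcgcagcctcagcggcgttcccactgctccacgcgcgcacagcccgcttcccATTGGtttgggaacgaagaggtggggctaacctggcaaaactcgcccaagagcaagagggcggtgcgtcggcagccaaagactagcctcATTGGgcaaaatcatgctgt
Ebp: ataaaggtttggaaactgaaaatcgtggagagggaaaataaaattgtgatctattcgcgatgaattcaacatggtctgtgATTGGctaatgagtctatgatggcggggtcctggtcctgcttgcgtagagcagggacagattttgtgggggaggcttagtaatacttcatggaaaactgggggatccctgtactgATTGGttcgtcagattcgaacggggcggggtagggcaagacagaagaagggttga
The promoter of Hmgcs1 holds 1 SREBP motif, which begins 137 bases before the start, and 3 NF-Y boxes. The bases printed for Nsdhl and Ebp hold 2 NF-Y boxes each. In the full window, with the 50 bases after the start, Hmgcs1 and Nsdhl had 4 boxes and Ebp had 2. These promoters do not stand for the other enzymes: Mvk (log2 ratio -0.65) had more boxes in its window than Lss (-1.72). Whether the number of boxes goes with the log2 ratio was not tested.

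Of the 6 genes that control SREBP 1 was lower by 2-fold or more and 5 were within 2-fold, with a median log2 ratio of -0.50. The difference from the enzymes was not tested. That gene was Insig1, which encodes a retention protein and is itself a well-known SREBP target. It lies on chromosome 5 (chr5:28071412-28078662), and its signal was 551.2 with GapmeR AK156230, against 1266.6 with GapmeR Control, or 2.30-fold lower. Insig2, the related retention protein, had 202.2 with GapmeR AK156230, against 295.2 with GapmeR Control (1.46-fold lower), and its other probe sets were 1.56-fold and 1.68-fold lower.

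Srebf2, which encodes the factor itself, differed little. Its signal was 501.1 with GapmeR AK156230, against 643.8 with GapmeR Control, a log2 ratio of -0.36, and its other probe set was at -0.23. Scap had 455.1 with GapmeR AK156230, against 864.1 with GapmeR Control (1.90-fold lower), although a dim one gave 18.9 with GapmeR AK156230 and 15.3 with GapmeR Control, and the mean log2 ratio of both was -0.31. The protease genes Mbtps1 and Mbtps2, which release the active fragment, had log2 ratios of -0.34 and -0.45. All 6 control genes thus had log2 ratios below 0 at their brightest probe set.

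**Figure D2:**
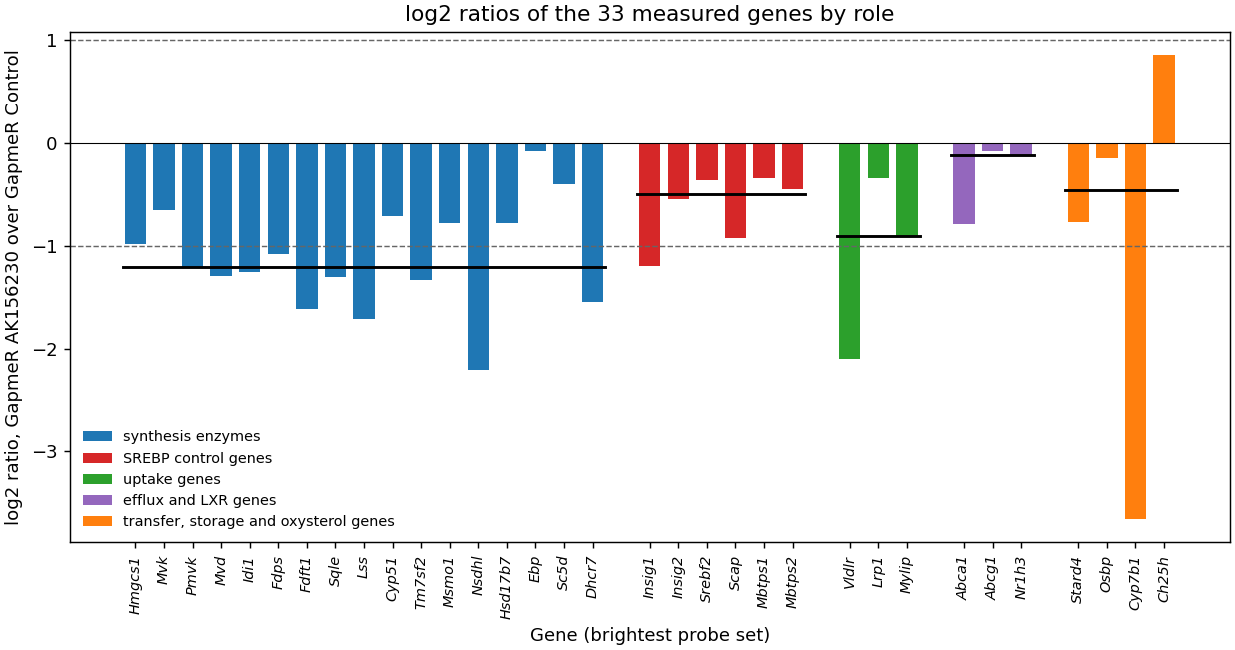
The log2 ratio, GapmeR AK156230 over Control (1 array each), for the brightest probe set of each of the 33 measured genes, with bars coloured by role, a black line marking the median of each role and dashed lines at 2-fold. The median of the synthesis enzymes is at -1.20, below those of the SREBP control genes (-0.50) and the efflux and LXR genes (-0.12), and in the signals as deposited Ch25h is the sole bar above 0.

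Of the uptake genes Vldlr, a receptor of triglyceride-rich lipoproteins and a member of the LDL receptor family, was lower by 2-fold or more. It lies on chromosome 19 (chr19:27216480-27254231), and its signal was 117.9 with GapmeR AK156230, against 505.7 with GapmeR Control, or 4.29-fold lower. Vldlr was read by 6 probe sets, all with log2 ratios below 0, from -2.10 to -0.61, and their mean was -1.46. All but the brightest lay below the array's median with GapmeR AK156230, at 28.3 to 41.7, so the size of their ratios is uncertain. The large receptor gene Lrp1, which clears lipoprotein remnants and many other ligands, was bright on both arrays, with 1093.6 with GapmeR AK156230, against 1383.8 with GapmeR Control (log2 ratio -0.34). A dimmer probe set of Lrp1 had 0.37, and the mean of both was 0.01, so no direction can be given for this gene. Mylip encodes the ubiquitin ligase that sends receptors of this family, VLDLR included, to the lysosome. It had 299.7 with GapmeR AK156230, against 560.2 with GapmeR Control (1.87-fold lower), within the 2-fold threshold.

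The 3 measured genes of export and LXR had a median log2 ratio of -0.12. None passed 2-fold, while 3.85% of all named genes were lower by that much. The difference from the other roles was not tested. Abca1, which hands cholesterol to lipid-poor apolipoproteins and is a classic LXR target, had 249.2 with GapmeR AK156230, against 431.7 with GapmeR Control (1.73-fold lower). Its other probe sets were dim, at 18.3 and 12.5 with GapmeR AK156230 and 11.7 and 16.2 with GapmeR Control, and with them the mean log2 ratio was -0.17. Abcg1, which exports cholesterol to lipoprotein particles, was nearly equal, with 231.1 with GapmeR AK156230, against 244.7 with GapmeR Control. Nr1h3, which encodes LXR alpha, had 76.5 with GapmeR AK156230, against 83.0 with GapmeR Control (log2 ratio -0.12). The LXR targets on the list, Abca1, Abcg1 and Mylip, thus spanned log2 ratios from -0.90 to -0.08.

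The genes of sterol transfer and oxysterol metabolism held both extremes of the list. Stard4, a cytosolic sterol carrier and an SREBP target, had 333.7 with GapmeR AK156230, against 570.3 with GapmeR Control (1.71-fold lower), with log2 ratios of -0.83 and -0.42 at its other probe sets. Osbp, which exchanges sterol and phosphoinositide between the endoplasmic reticulum and the Golgi, had 436.1 with GapmeR AK156230, against 483.9 with GapmeR Control (log2 ratio -0.15). These carriers were both below 0, as most of the list was.

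Ch25h makes a side-chain-hydroxylated oxysterol that is known to hold SREBP in the endoplasmic reticulum and to activate LXR. It was the single gene of the 33 with a log2 ratio above 0 in the signals as deposited, with 632.0 with GapmeR AK156230, against 350.6 with GapmeR Control, or 1.80-fold higher, under the threshold and at 1 probe set. Cyp7b1, the hydroxylase that inactivates such oxysterols on the way to bile acids, had the lowest log2 ratio of all, -3.66. Its brightest probe set had 13.3 with GapmeR AK156230, against 167.9 with GapmeR Control, and the next had 10.6 with GapmeR AK156230, against 121.8 with GapmeR Control. The signals with GapmeR AK156230 were far below the median of that array, so the size of the ratio is uncertain, and with 24.3 (the 25th percentile of all signals) added to every signal it was -2.35. A further probe set of Cyp7b1 was dim on both arrays, with 14.2 with GapmeR AK156230 and 13.7 with GapmeR Control, and the mean log2 ratio of all 3 was -2.38.

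Probe sets of the same gene mostly pointed the same way. The 33 genes had 73 probe sets in all, of which 65 had log2 ratios below 0 and 27 were lower by 2-fold or more, while none was higher by 2-fold. Of the 40 probe sets other than the brightest of a gene, 33 had the sign of the brightest. Among the 20 of them above the median on both arrays it was 19, the exception being that of Lrp1, and among the 20 dimmer ones it was 14. For the synthesis enzymes 31 probe sets lay above the median on both arrays and all 31 had log2 ratios below 0. Probe sets ending in _x_at or _s_at can bind transcripts of other genes, and they stood for Hmgcs1, Fdft1, Lss, Hsd17b7, Vldlr and Cyp7b1. Without such probe sets the log2 ratios of these genes were -0.98, -1.70, -1.51, -0.79, -2.07 and -3.52 in that order, each on the same side of 2-fold. Those of Vldlr and Cyp7b1 rest on probe sets with signals of 34.3 and 10.6 with GapmeR AK156230, below that array's median. A further probe set that covers Mbtps2 and a neighbouring gene was not used.

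**Figure D3:**
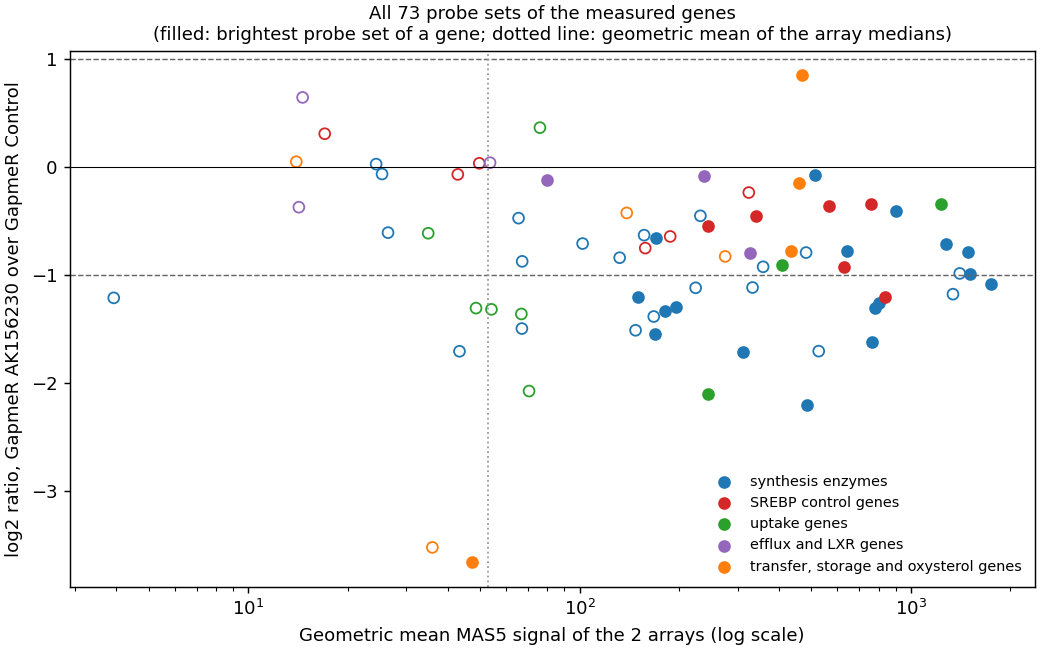
The log2 ratio, GapmeR AK156230 over Control, against the geometric mean signal of the 2 arrays (log scale) for all 73 probe sets of the 33 measured genes, filled for the brightest probe set of a gene and open for the others, coloured by role. Of the 8 probe sets above 0, 6 belong to the dim ones, and the bright exceptions are Ch25h and a probe set of Lrp1.

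The share of lower genes on these arrays differed between classes of genomic length. Where the brighter signal reached its array's median, 2.17% of those under 25 kb, 3.66% of those of 25 to 50 kb and 17.8% of those over 100 kb were lower by 2-fold or more. The 17 synthesis enzymes were not long, at 5.03 to 40.0 kb with a median of 16.1 kb, against a median of 22.5 kb for all named genes that reached this signal. Within the pathway the 4 enzymes over 25 kb (Nsdhl, Lss, Fdft1 and Dhcr7) had the 4 lowest log2 ratios at their brightest probe sets, with a median of -1.67. This order did not hold with the mean of all probe sets, where Fdft1 was at -0.94 and shorter enzymes such as Mvd (-1.34) and Sqle (-1.30) were lower. Lss (25.6 kb) and Dhcr7 (25.2 kb) lay just over the 25 kb limit, and Cyp51 (24.0 kb, log2 ratio -0.71) just under it. The 13 shorter enzymes had a median of -0.99, and 6 of them were lower by 2-fold or more. Over the 17 enzymes Spearman's rho between length and log2 ratio was -0.39, a description of genes that share the same arrays. Cyp7b1 spans 171.9 kb (chr3:18071944-18243890) and Abca1 129.2 kb, in the class with the highest share, while Ch25h spans 1.37 kb. The part of gene length in these values was not tested.

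**Figure D4:**
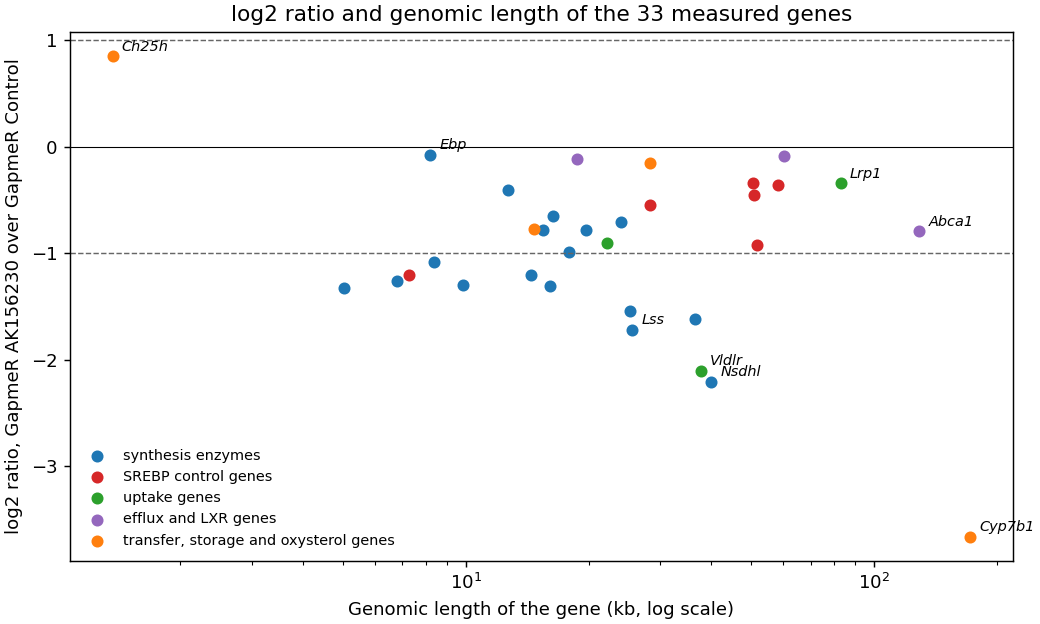
The log2 ratio, GapmeR AK156230 over Control, against genomic length (kb, log scale) for the 33 measured genes, coloured by role, with dashed lines at 2-fold. The synthesis enzymes lie between 5.03 and 40.0 kb and most are near or below the lower line, Cyp7b1 is the longest gene and the lowest point, and Ch25h is the shortest and the highest.

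A wider list of sterol genes covered lysosomal export, oxysterol-binding proteins, ubiquitin ligases and NF-Y subunits among others. Of its 36 genes 34 were measured, with a median log2 ratio of -0.25, and 1 was lower and 1 higher by 2-fold or more, or 2.94% in each direction, against 3.85% lower and 1.59% higher among all named genes. The lower one was Npc1, a membrane protein that releases cholesterol from lysosomes, with 127.9 with GapmeR AK156230, against 350.7 with GapmeR Control (2.74-fold lower). Its partner Npc2 was bright and nearly equal, with 3942.2 with GapmeR AK156230 and 4027.8 with GapmeR Control. Cyp27a1, a mitochondrial sterol hydroxylase, was the higher one, with 97.7 with GapmeR AK156230, against 41.6 with GapmeR Control (2.35-fold higher). That gene was below the array's median in the control, and no gene of this list was higher by 2-fold with 24.3 added to every signal or with the mean of all probe sets. Srebf1, which encodes the related factors of fatty acid synthesis, had a log2 ratio of -0.34, near that of Srebf2, and the NF-Y subunit genes Nfya, Nfyb and Nfyc had 0.56, 0.16 and -0.11.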

How the data were processed

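RNA of MEFs transfected with GapmeR AK156230 or GapmeR Control was measured on 1 array each. The deposited intensity values are linear MAS5 signals of 45037 probe sets, computed by the authors (version and scaling target not given in the sources used here), without detection calls. The methods of the study name a porcine array, but the probe sets carry a mouse platform annotation, which was used. It gave 1 symbol for 34945 probe sets, several for 932 and none for 9160, and symbols were updated through the Entrez ID. Positions are from RefSeq genes of GRCm38.p6.

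The members, role groups and lists were chosen with earlier results of these data known. All members are named, and of the wider sterol list those past 2-fold, with Npc2, Srebf1 and the NF-Y subunit genes added after their values were seen. The signals were compared as ratios with no test, since the SAM test named in the methods needs several arrays per group. The number of arrays limits the precision. The alternatives were median scaling, quantile normalization, a loess correction, an offset at the 25th percentile (24.3), the mean of a gene's probe sets, no _x_at or _s_at probe sets, a minimum signal, and limits of 1.5-fold or 3-fold. The counting was tested on simulated data. Python 3.11.15, numpy 2.4.6, pandas 2.3.3, statsmodels 0.14.6 and matplotlib 3.10.9 were used.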

Additional observations from a re-analysis of the deposited data

How the results depend on the processing

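Over the scaling, offset, probe set and minimum signal alternatives the number of genes of the list lower by 2-fold or more was 12 or 13, and none was higher by 2-fold. At 1.5-fold 22 were lower and 1 was higher, and at 3-fold 5 were lower. The medians of the roles moved by less than 0.24, the SD per probe set among the brighter probe sets, under all of these alternatives. Of 198 values of single genes under the scaling, offset and probe set alternatives, 190 moved by less than that SD and 8 by more. Of these 8, 7 arose with the mean of all probe sets, where Fdft1 (-0.94) was within 2-fold and Hmgcs1 (-1.19) was past it. Many of the 190 could not move further. Median scaling shifts every gene alike, by less than that SD, and the mean of all probe sets leaves genes with 1 probe set unchanged. Leaving out _x_at and _s_at probe sets changes only genes that such a probe set stood for. The wider sterol list had 4 lower and 2 higher at 1.5-fold, 0 in each direction at 3-fold, and 0 higher with the offset or the mean of all probe sets. Over all named genes 289 were higher by 2-fold or more, and 157 with the offset. No paired analysis was possible because each condition has a single array. Signals near the bottom of the range, as for Cyp7b1 with GapmeR AK156230, limit the ratios.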
